A study of Mus musculus with 14 samples.

Results

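The 9 genes Lss, Cyp51, Tm7sf2, Sc4mol (the older symbol of Msmo1), Nsdhl, Hsd17b7, Ebp, Sc5d and Dhcr7 encode the enzymes that make lanosterol and turn it into cholesterol. They were taken by symbol from an mRNA-seq table of 23427 genes, by a rule that uses no measured value, and all 9 were found and passed the filter on low values. The set was nevertheless chosen with earlier results of these data known. The paper had reported from this series that knockdown of Sbp2l lowered cholesterol synthesis genes, so the falls given below are not an independent finding. Mouse primary oligodendrocyte precursor cells (OPCs) that differentiate into oligodendrocytes (OLs) were measured in 14 libraries, which fell into 7 groups of 2. OPCs at Day0 formed 1 group, and 6 groups came from Day3, namely cells left non-treated, mock-transfected cells, and cells given NC siRNA #1, NC siRNA #2, siSbp2l or siPdgfra.

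All cells came from the cortex of C57BL/6J pups about a week after birth, and differentiation was started by withdrawing PDGF-AA and adding the thyroid hormone T3. The labels also name DMEM with fetal bovine serum as the growth medium of every group. The paper's methods differ: they list no serum in the OPC medium and name it only for another cell line. Whether these cultures held serum, a possible source of cholesterol, is therefore unclear. The Day0, non-treated, mock and NC groups are labelled WT, the siSbp2l group carried a knockdown of Secisbp2l (Sbp2l), and the siPdgfra group a knockdown of Pdgfra, the receptor by which the OPCs were captured. NC siRNAs are non-targeting small interfering RNAs, mock cells by the usual meaning of the term received the transfection reagent without an siRNA, and the cells of several pups were pooled for each culture. Whether the Sbp2l knockdown used a single siRNA or a mixture is not given in the sources used here. A knockdown in culture lowers a transcript for a few days only, and does not show what the gene does in the brain.

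Cholesterol is a main lipid of myelin, and cells of the brain make their own because little of it crosses from the blood. Lss closes the chain of squalene epoxide into the ring compound lanosterol, and the next 8 enzymes strip methyl groups from the rings and shift or reduce double bonds until cholesterol or its direct precursor is left. The genes of the pathway are known targets of the transcription factor SREBP-2, which binds sterol regulatory elements together with the factors NF-Y and Sp1. This is background, and none of it was measured here.

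Promoter sequence is shown because genes of the pathway are known as targets of SREBP-2. Whether 1 regulator acts on all 9 genes in these cells was not tested. All 9 matched a RefSeq promoter window (GRCm38.p6, 250 bases before to 50 after the transcript start). The NF-Y box CCAAT, searched on both strands, was found in 8 of the 9 genes and in 37.4% of all 32817 windows (38.4% of the 12164 windows of genes tested here). Capitals mark the box in the match nearest before each start, with 10 bases on either side, read 5′ to 3′ on the strand of the gene. ATTGG is the same box on the opposite strand.
Lss: tgatgctctgATTGGccgagctcgc
Cyp51: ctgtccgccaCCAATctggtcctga
Tm7sf2: cccagcgctgATTGGctactgtgct
Sc4mol: gtggggcggaCCAATtacgacaggc
Nsdhl: gactagcctcATTGGgcaaaatcat
Hsd17b7: ccgagccttgATTGGtcgaggtgcg
Ebp: ccctgtactgATTGGttcgtcagat
Sc5d: ccggctgctgATTGGccggctgcct
Dhcr7, with the GC box in capitals: ccgtgagaccCCGCCCccgcggagat

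These stretches lie at chr10:76531533-76531557 (Lss, plus strand), chr5:4104712-4104736 (Cyp51, minus), chr19:6067883-6067907 (Tm7sf2, minus), chr8:64733619-64733643 (Sc4mol, minus), chrX:72918491-72918515 (Nsdhl, plus), chr1:169969203-169969227 (Hsd17b7, minus), chrX:8193553-8193577 (Ebp, minus), chr9:42264310-42264334 (Sc5d, minus) and chr7:143823009-143823034 (Dhcr7, plus). The boxes begin between 12 (Hsd17b7) and 62 (Lss) bases before the start. Nsdhl held 4 NF-Y boxes, Sc4mol and Hsd17b7 held 3 each, Ebp 2, and Lss, Cyp51, Tm7sf2 and Sc5d 1 each. Dhcr7 held no CCAAT in this window, so its GC box (GGGCGG on either strand) is shown instead.

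The GC box occurred in all 9 windows, against 35.6% of all windows and 63.9% of those of tested genes, whose median GC content was 61.3%. No member window held the sterol regulatory element TCACNCCAC (1.24% of windows) or its core CACNCCAC (6.24%), a match within the first being counted in the second too. The Tcf/Lef motif CTTTGA was found in none (16.0% of windows, 11.3% of those of tested genes). The E box CACGTG was found in 2, Hsd17b7 and Sc5d (7.15% of windows, 9.98% of those of tested genes). These are matches of letters and show nothing about binding.

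The libraries held between 6560817 (NC siRNA #2 replicate 2) and 31621115 (Day0 replicate 1) fragments, as recovered from the steps between low FPKM values, and the other 12 held 18481035 to 22496395. FPKM are fragments per kilobase of exon scaled to the mapped fragments of the library. The thinnest member value rested on 130 fragments (Tm7sf2) and the richest on 10290 (Cyp51). Secisbp2l stood at 3.91 and 3.82 FPKM in siSbp2l against 135 to 255 in the 8 control libraries, and Pdgfra at 3.30 and 2.69 in siPdgfra against 32.4 to 72.1. The non-treated pair stood apart: the SD of the log2 difference between its libraries over all genes was 0.457, against 0.148 to 0.1995 in the other pairs. Listed markers of OPCs were present in every library (summed level 923 to 2399 FPKM), while 0 of 5 endothelial and mural markers reached 1 FPKM and the 6 microglial markers summed to 0.534 to 9.46 FPKM. Nothing in the labels ties the 2 libraries of a group to separate cultures, although the methods speak of independent replicates, so p-values measure the spread between these libraries.

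Together the 9 genes made up 318 ± 11.5 FPKM (SD, n = 2) at Day0, 394 ± 0.619 in non-treated, 435 ± 4.39 in mock, 390 ± 6.05 in NC siRNA #1 and 410 ± 3.55 in NC siRNA #2. The sum was 385 ± 28.7 FPKM in siPdgfra and 197 ± 1.98 in siSbp2l. The siSbp2l libraries were thus below every other library, Day0 included, and those of siPdgfra lay near the control groups. The small SD of the sum in non-treated hides differences between its replicates 1 and 2 that went opposite ways. Dhcr7, for example, was at 39.3 and 29.6 FPKM, and Hsd17b7 at 33.3 and 40.7. In bulk samples, fewer cells of a type and less RNA per cell cannot be told apart.

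On the per-length scale, Sc4mol and Cyp51 were the highest members in all 7 groups. Cyp51 led at Day0 with 75.9 FPKM, and Sc4mol led in each of the 6 Day3 groups, from 39.2 FPKM in siSbp2l to 103 in NC siRNA #2. The lowest member was Ebp at Day0, Hsd17b7 in siPdgfra and Tm7sf2 in the other 5 groups.

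**Figure D1:**
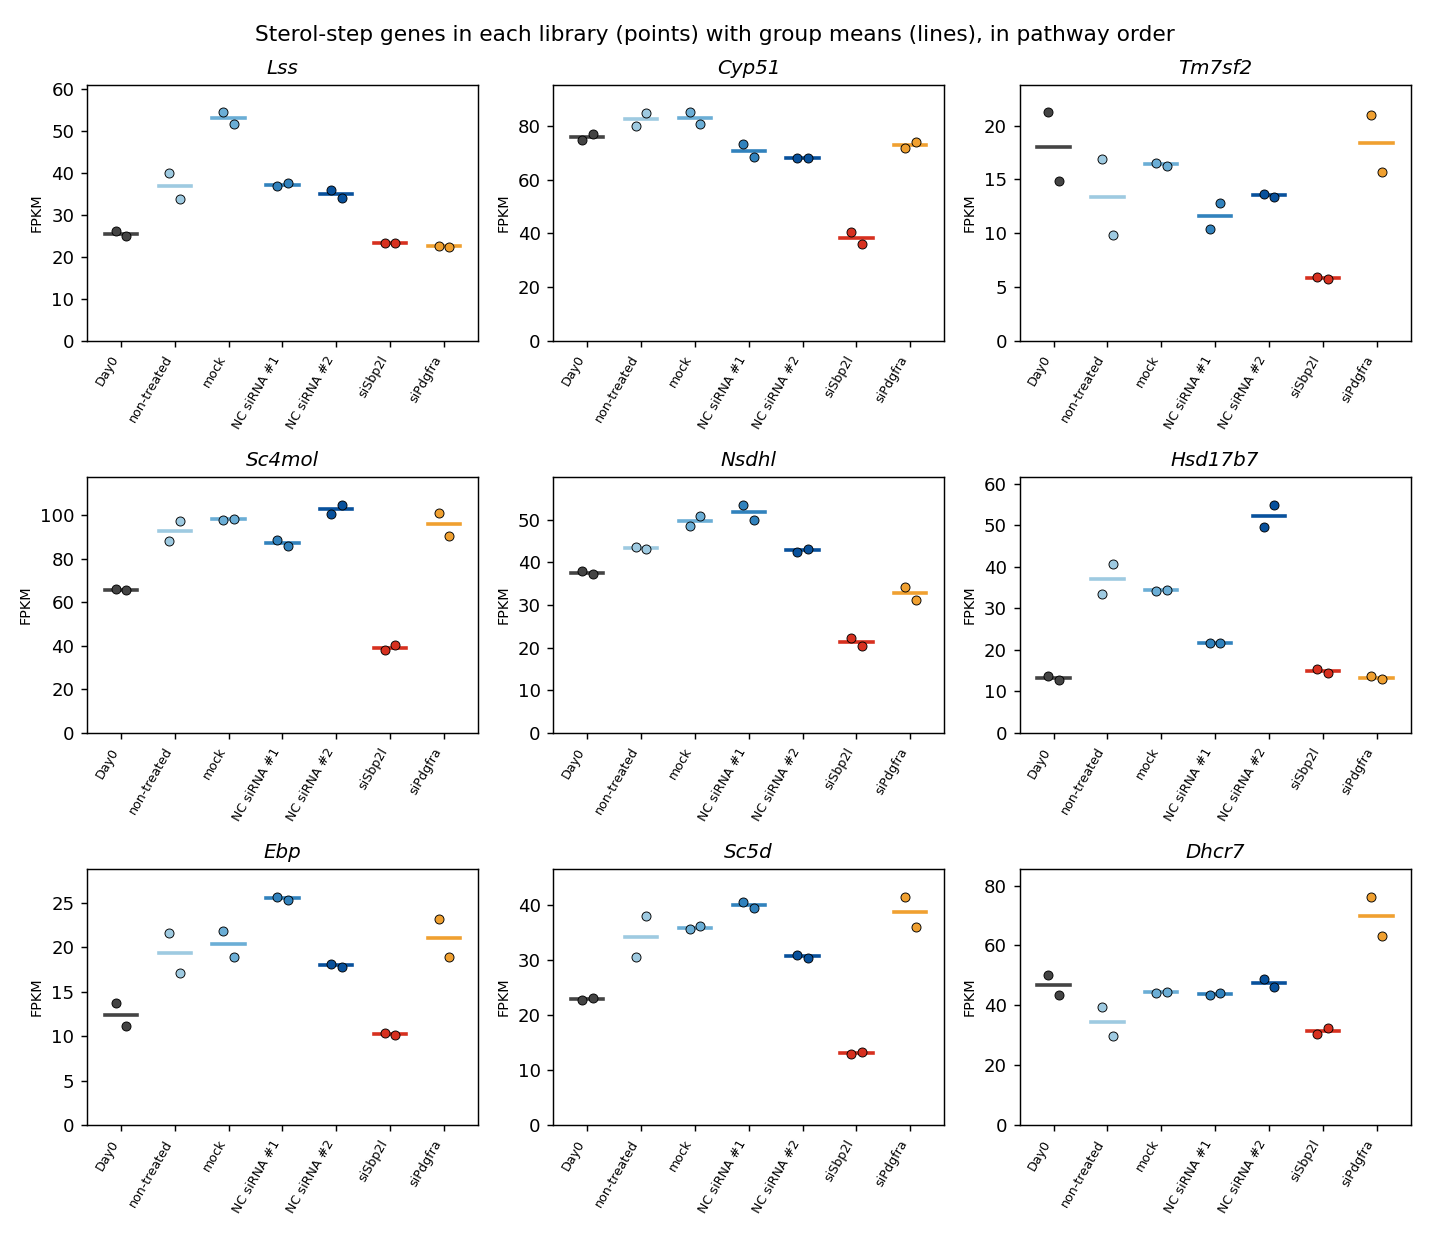
FPKM of each gene (vertical axis, starting at 0) in each library (points) by group, with the group mean as a line and n = 2 a group. The siSbp2l points lie below all control points except for Dhcr7, and the siPdgfra points do so only for Lss, Nsdhl and Hsd17b7.

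The loss of Sbp2l was compared with the mean of the 4 Day3 control groups, each group weighted equally. All 9 members fell (17.9% of the 11650 genes tested were lower), and 5 of them fell by at least 2-fold on the log2(FPKM + 1) scale (4.08% of genes). A gene is said here to rise, fall or pass the test at a Benjamini-Hochberg adjusted p under 0.05 in limma. No member rose, while 35.5% of genes did. The median log2 difference of the members was -1.09, while that of all genes was 0.15. With scaling by median ratios, which sets the median of all genes to 0, the members' median was -1.24. In 8 of the 9 genes both siSbp2l libraries lay below all 8 control libraries, as they did in 13.5% of genes.

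Lss, lanosterol synthase, stands at the head of the series (chr10:76531627-76553934, mm10, plus strand). Its level was 40.03 and 33.87 FPKM in non-treated, 54.5 and 51.7 in mock, 36.9 and 37.6 in NC siRNA #1, and 35.9 and 34.0 in NC siRNA #2. It was 23.2 and 23.3 in siSbp2l and 22.5 and 22.5 in siPdgfra, beside 26.1 and 25.0 at Day0. All 4 knockdown libraries were below the 8 controls, which did not overlap with Day0 either. Against the mean of the controls the log2 difference was -0.76 (SE 0.077, adjusted p = 2.62e-05) in siSbp2l and -0.80 (SE 0.077, adjusted p = 1.63e-05) in siPdgfra.

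Cyp51, the cytochrome P450 that removes a methyl group from lanosterol (chr5:4080674-4104697, minus strand), was at 80.1 and 84.9 FPKM in non-treated, 85.1 and 80.7 in mock, 73.2 and 68.5 in NC siRNA #1, and 68.0 and 68.0 in NC siRNA #2. Levels were 40.6 and 36.0 FPKM in siSbp2l, 71.7 and 73.9 in siPdgfra, and 74.7 and 77.0 at Day0. The siSbp2l pair stood alone, and every other group lay within 68.0 to 85.1. Cyp51 fell by 0.97 on the log2 scale in siSbp2l (SE 0.075, adjusted p = 3.98e-06). In siPdgfra the difference was -0.06, with a 95% interval from -0.22 to 0.11 (adjusted p = 0.537).

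Tm7sf2 encodes a reductase of the double bond that the Cyp51 reaction leaves behind (chr19:6062821-6067850, minus strand). It was the member with the fewest fragments and, in the non-treated, Day0 and siPdgfra pairs, the widest difference between replicates. Its level was 16.9 and 9.81 FPKM in non-treated, 16.5 and 16.2 in mock, 10.4 and 12.8 in NC siRNA #1, and 13.7 and 13.4 in NC siRNA #2. It was 5.90 and 5.70 in siSbp2l, 20.98 and 15.70 in siPdgfra, and 21.2 and 14.8 at Day0. Only siSbp2l was apart from the rest, with a log2 difference of -1.09 (SE 0.17, adjusted p = 0.000446). In siPdgfra the difference of 0.40 did not pass (interval 0.03 to 0.78, adjusted p = 0.0660). It did without non-treated replicate 1 (0.49, adjusted p = 0.00105), without non-treated replicate 2 (0.31, adjusted p = 0.0161) and with mock left out of the controls (0.49, adjusted p = 0.0361).

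Sc4mol, Nsdhl and Hsd17b7 act in turn to take the paired methyl groups off ring A. Sc4mol, the methyl sterol monooxygenase (chr8:64718145-64733578, minus strand), was at 88.4 and 97.5 FPKM in non-treated, 98.1 and 98.4 in mock, 88.5 and 85.8 in NC siRNA #1, and 101 and 105 in NC siRNA #2. The siSbp2l libraries had 38.0 and 40.4 FPKM, those of siPdgfra 101 and 90.7, and Day0 66.1 and 65.7. The siPdgfra pair fell within the range of the controls, Day0 lay below it, and siSbp2l lay below Day0. Sc4mol fell by 1.26 on the log2 scale in siSbp2l (SE 0.076, adjusted p = 8.29e-07). The value for siPdgfra was 0.01 (interval -0.16 to 0.18).

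Nsdhl, the decarboxylating dehydrogenase of the same round (chrX:72918521-72958528, plus strand), was at 43.6 and 43.2 FPKM in non-treated, 48.5 and 50.8 in mock, 53.56 and 50.01 in NC siRNA #1, and 42.4 and 43.2 in NC siRNA #2. It stood at 22.2 and 20.4 in siSbp2l, 34.3 and 31.2 in siPdgfra, and 38.0 and 37.2 at Day0. These 3 groups followed one another without overlap, all below the controls. The log2 difference was -1.10 (SE 0.073, adjusted p = 1.48e-06) in siSbp2l and -0.50 (SE 0.073, adjusted p = 0.000267) in siPdgfra.

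Hsd17b7, the keto reductase that completes the round (chr1:169949537-169969205, minus strand), differed most among the controls. It was at 33.3 and 40.7 FPKM in non-treated, 34.2 and 34.5 in mock, 21.6 and 21.7 in NC siRNA #1, and 49.5 and 55.0 in NC siRNA #2. It was at 15.3 and 14.5 FPKM in siSbp2l, 13.7 and 12.9 in siPdgfra, and 13.6 and 12.6 at Day0. Both knockdowns stood near the level of Day0 and below all controls. The log2 difference was -1.17 (SE 0.087, adjusted p = 3.25e-06) in siSbp2l and -1.32 (SE 0.087, adjusted p = 1.47e-06) in siPdgfra.

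Ebp, the isomerase that moves a double bond within ring B (chrX:8185331-8193512, minus strand), was at 21.6 and 17.2 FPKM in non-treated, 21.8 and 18.9 in mock, 25.7 and 25.3 in NC siRNA #1, and 18.2 and 17.8 in NC siRNA #2. It was at 10.3 and 10.2 in siSbp2l, 23.2 and 18.9 in siPdgfra, and 13.7 and 11.1 at Day0. The siSbp2l and Day0 libraries lay below the rest. Ebp fell by 0.94 on the log2 scale in siSbp2l (SE 0.10, adjusted p = 5.08e-05), and the siPdgfra value was 0.02 (interval -0.21 to 0.26).

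Sc5d, the desaturase that adds the next double bond to ring B (chr9:42254177-42264300, minus strand), showed the largest fall of the 9 in siSbp2l. It was at 30.5 and 38.0 FPKM in non-treated, 35.6 and 36.2 in mock, 40.5 and 39.4 in NC siRNA #1, and 30.9 and 30.4 in NC siRNA #2. Its siSbp2l libraries were at 12.9 and 13.3 FPKM, those of siPdgfra at 41.5 and 35.9, and Day0 at 22.7 and 23.0. No siSbp2l library reached the Day0 level. The log2 difference was -1.36 (SE 0.091, adjusted p = 1.65e-06) in siSbp2l and 0.14 (interval -0.06 to 0.34, adjusted p = 0.215) in siPdgfra. The siPdgfra difference passed without non-treated replicate 2 (0.18, adjusted p = 0.0165).

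Dhcr7, the reductase that removes the double bond of ring B in the last step (chr7:143823167-143848410, plus strand), was the member that rose in siPdgfra against the mean of the controls. It was at 39.3 and 29.6 FPKM in non-treated, 44.1 and 44.5 in mock, 43.5 and 44.1 in NC siRNA #1, and 48.7 and 46.1 in NC siRNA #2. It was at 30.3 and 32.3 FPKM in siSbp2l, 76.3 and 63.1 in siPdgfra, and 50.1 and 43.5 at Day0. The siSbp2l pair overlapped with non-treated replicate 2 and lay below the other 7 controls, and the siPdgfra pair lay above all libraries of the other groups. Dhcr7 fell by 0.42 on the log2 scale in siSbp2l (SE 0.11, adjusted p = 0.00860), which was lost without siSbp2l replicate 1 (-0.37, adjusted p = 0.0959). In siPdgfra it rose by 0.71 (SE 0.11, adjusted p = 0.000389).

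**Figure D2:**
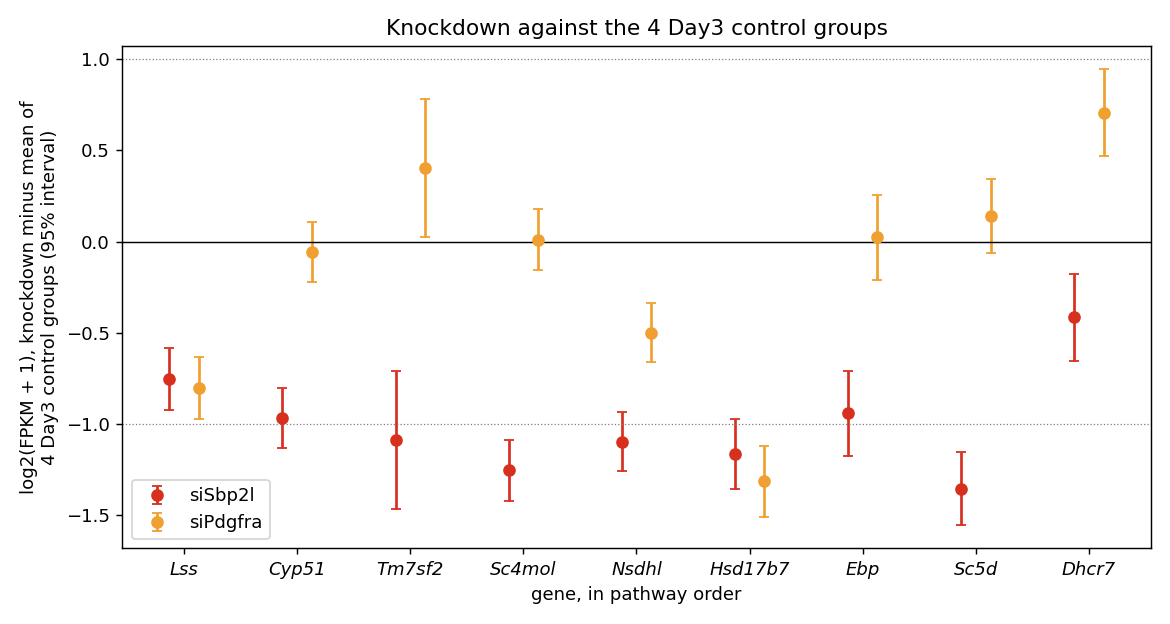
Difference in log2(FPKM + 1) between each knockdown and the mean of the 4 Day3 control groups (vertical axis), with 95% intervals from limma, for the 9 genes in pathway order; dotted lines mark 2-fold. All siSbp2l values are negative, from -1.36 (Sc5d) to -0.42 (Dhcr7), while the siPdgfra values run from -1.32 (Hsd17b7) to 0.71 (Dhcr7).

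In siPdgfra, 3 members fell (Lss, Nsdhl and Hsd17b7, against 23.0% of all genes) and 1 rose (Dhcr7, against 32.4%). Only Hsd17b7 fell by at least 2-fold (4.03% of genes). The median over the 9 was 0.01, and 0.09 over all genes. Both siPdgfra libraries lay below all 8 controls for the same 3 genes that fell (17.5% of genes) and above them for Dhcr7 (26.5%). Read against these shares, the counts in siPdgfra do not set the members apart from other genes.

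The comparison of siSbp2l with each control group gave the same direction for all members. Against non-treated, 8 fell (16.2% of genes), 5 by at least 2-fold (4.95%). The exception was Dhcr7, whose difference of -0.12 did not pass (adjusted p = 0.479). Against mock all 9 fell (15.4%), 7 by 2-fold (4.76%). Against NC siRNA #1 all 9 fell (16.7%), 4 by 2-fold (5.28%), and against NC siRNA #2 all 9 fell (16.3%), 4 by 2-fold (4.3%). Sc4mol and Sc5d passed 2-fold against each of the 4 groups. The siSbp2l libraries are shared by these comparisons.

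For siPdgfra, Lss, Nsdhl and Hsd17b7 fell against every control group. The share of genes that fell was 19.5% with non-treated as the control, 18.7% with mock, 19.6% with NC siRNA #1 and 21.6% with NC siRNA #2. Dhcr7 rose against each of them, by 1.00, 0.64, 0.65 and 0.54 on the log2 scale in that order. Genes that rose made up 30.7%, 24.5%, 26.9% and 24.9%. Besides Dhcr7, Tm7sf2 rose against NC siRNA #1 (0.61, adjusted p = 0.0387) and Sc5d against NC siRNA #2 (0.32, adjusted p = 0.0412).

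The knockdowns were also set against each other. Of the members, 7 were lower in siSbp2l than in siPdgfra (23.4% of genes), 4 of them by at least 2-fold (6.73%). The differences were -1.496 (SE 0.11, adjusted p = 4.40e-06) for Sc5d, -1.49 (SE 0.21, adjusted p = 0.000257) for Tm7sf2, -1.27 (SE 0.096, adjusted p = 3.86e-06) for Sc4mol and -1.12 (SE 0.14, adjusted p = 9.01e-05) for Dhcr7. Ebp (-0.97), Cyp51 (-0.91) and Nsdhl (-0.60) were lower by less. Lss (0.05, interval -0.17 to 0.27, adjusted p = 0.707) and Hsd17b7 (0.15, interval -0.09 to 0.40, adjusted p = 0.273) did not pass.

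The level of OL markers moved with these groups. The 8 OL markers, Mbp among them, summed to 1730 and 1930 FPKM in siSbp2l, 4314 to 4979 in siPdgfra, 5001 to 9245 in the 8 controls and 401 to 445 at Day0. All 8 reached 1 FPKM in every Day3 library, and 5 did at Day0. Mbp itself fell by 1.97 on the log2 scale in siSbp2l (adjusted p = 5.11e-06) and differed by 0.03 in siPdgfra (adjusted p = 0.887). The 7 OPC markers summed to 1139.5 and 1171.5 FPKM in siSbp2l, 1067 to 1202 in siPdgfra, 923 to 1367 in the controls and 2088 to 2399 at Day0. Among them, Pdgfra was at 150 and 144 FPKM in siSbp2l, a rise of 1.54 against the controls (adjusted p = 4.73e-07). At Day0 Pdgfra was at 409 and 436 FPKM. Astrocyte markers summed to 41.3 to 42.1 FPKM in siPdgfra, 102 to 110 in siSbp2l and 90.0 to 158 in the controls, with 4 of 6 at 1 FPKM or more in every Day3 library. Neuronal markers summed to 327 and 328 FPKM in siSbp2l, 342 and 344 in siPdgfra and 126 to 355 in the controls. Only 2 to 4 of these 6 reached 1 FPKM in a library. Tubb3 (22.8 to 273 FPKM over all libraries) and Mtap2 (52.4 to 214) made up most of the sums, so these do not measure neuronal content. The part of these shifts in the results for the 9 genes was not tested.

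Differentiation was read from non-treated Day3 cells against Day0. Of the 9, 5 rose (28.4% of the 11874 genes tested), 1 by at least 2-fold (11.4%), and 1 fell (38.6%). Hsd17b7 rose by 1.42 (SE 0.10, adjusted p = 3.09e-07), which is 2.82 times the Day0 level in FPKM. Ebp rose by 0.60 (adjusted p = 0.00252), Sc5d by 0.55 (adjusted p = 0.000792), Lss by 0.51 (adjusted p = 0.000435) and Sc4mol by 0.49 (adjusted p = 0.000493). Dhcr7 fell by 0.44 (adjusted p = 0.0134), which was lost without Day0 replicate 1 (-0.34, adjusted p = 0.105) and without non-treated replicate 2 (-0.24, adjusted p = 0.0706).

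The remaining 3 did not pass: Nsdhl at 0.20 (adjusted p = 0.0559), Cyp51 at 0.12 (adjusted p = 0.252) and Tm7sf2 at -0.43 (adjusted p = 0.115). Tm7sf2 did pass without Day0 replicate 2 (-0.68, adjusted p = 0.0477) or non-treated replicate 1 (-0.80, adjusted p = 0.00298), and Nsdhl without non-treated replicate 2 (0.21, adjusted p = 0.0405). When only these 4 libraries were fitted, Hsd17b7 alone passed, and the adjusted p of Lss, Sc4mol, Ebp and Sc5d lay between 0.0568 and 0.0613.

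The other control groups gave a like picture against Day0, with the Day0 libraries shared. In mock 6 members rose (29.7% of genes), in NC siRNA #1 6 (31.8%) and in NC siRNA #2 5 (33.5%). Lss, Sc4mol, Hsd17b7, Ebp and Sc5d rose in each of the 4 control groups. Nsdhl rose in mock (0.39, adjusted p = 0.00170) and NC siRNA #1 (0.45, adjusted p = 0.000613), and Tm7sf2 fell in NC siRNA #1 (-0.58, adjusted p = 0.0399).

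Set against Day0, the knockdown groups differed in which steps moved. In siSbp2l, 6 members were lower than in the precursors (29.0% of genes): Tm7sf2 (-1.46, adjusted p = 0.000180), Cyp51 (-0.97), Nsdhl (-0.79), Sc5d (-0.77), Sc4mol (-0.73) and Dhcr7 (-0.56). Lss (-0.13, adjusted p = 0.231), Ebp (-0.25, adjusted p = 0.137) and Hsd17b7 (0.17, adjusted p = 0.171) did not pass. In siPdgfra, 4 rose (33.7% of genes): Sc5d (0.73), Ebp (0.72), Dhcr7 (0.56) and Sc4mol (0.53). Hsd17b7 differed from Day0 by 0.02 in siPdgfra (adjusted p = 0.881).

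**Figure D3:**
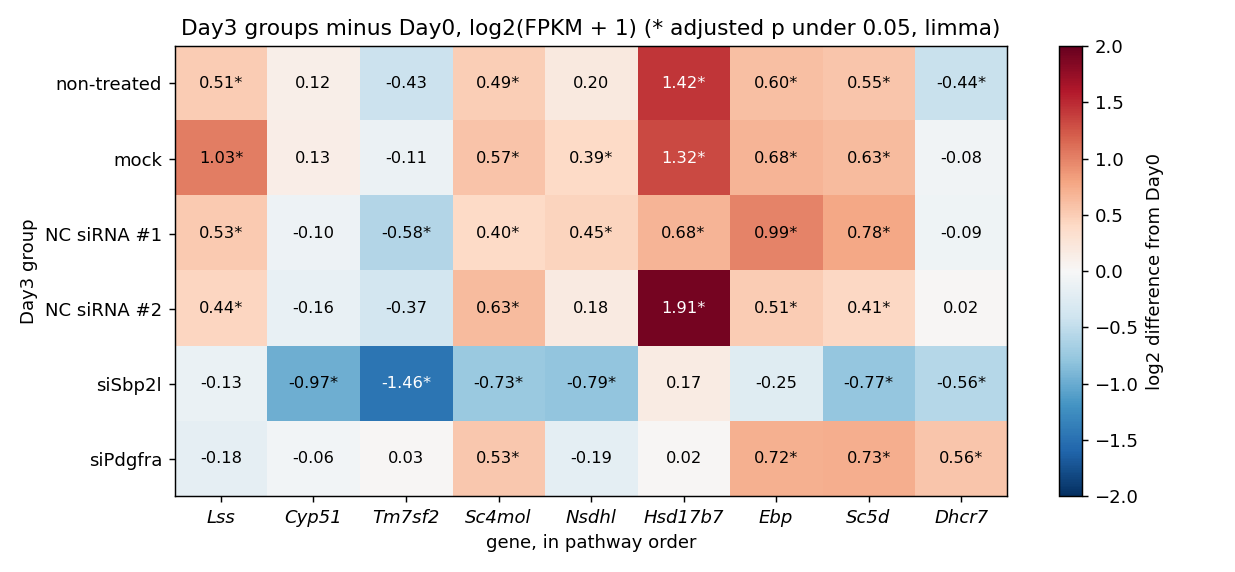
Difference in log2(FPKM + 1) of each Day3 group (rows) from Day0 for the 9 genes in pathway order (columns), with the value in each cell, red for higher and blue for lower; stars mark an adjusted p under 0.05 in limma. Hsd17b7 ranges from 0.02 in siPdgfra to 1.91 in NC siRNA #2, and the siSbp2l row holds the lowest value of every column except Lss and Hsd17b7.

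The 4 control groups were not alike for 5 of the members. Between mock and non-treated no member passed in limma (0.215% of genes), with 2 at an unadjusted p under 0.05. These were Lss (0.52 higher in mock, adjusted p = 0.0809) and Dhcr7 (0.37 higher, adjusted p = 0.243). The Lss difference was close in size to those between mock and the NC groups given below, which passed. Hsd17b7 differed in 5 of the 6 pairs of control groups, the exception being mock against non-treated. It was 2.41 times as high in NC siRNA #2 as in NC siRNA #1 (log2 1.23, adjusted p = 3.61e-05), a pair that differed in 21.0% of genes. Ebp (-0.48, adjusted p = 0.0271) and Sc5d (-0.37, adjusted p = 0.0448) were lower in NC siRNA #2 than in NC siRNA #1.

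Lss was lower than in mock in NC siRNA #1 (-0.50, adjusted p = 0.00519; 20.8% of genes differed) and in NC siRNA #2 (-0.59, adjusted p = 0.00302; 14.6%). Against non-treated, Hsd17b7 was lower in NC siRNA #1 (-0.74, adjusted p = 0.000872; 27.4%) and higher in NC siRNA #2 (0.49, adjusted p = 0.0109; 23.2%). Dhcr7 was higher in NC siRNA #2 than in non-treated (0.46, adjusted p = 0.0361). The highest control group mean was 1.18 times the lowest for Sc4mol, 1.21 for Nsdhl, 1.22 for Cyp51 and 1.52 for Lss.

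Placed in order of their means, many neighbouring groups did not differ beyond their spread. For Cyp51 only the gap between siSbp2l (38.3 FPKM) and NC siRNA #2 (68.0) passed, and the 6 groups from 68.0 to 82.9 did not differ from neighbour to neighbour. Tm7sf2 was the same in kind, with 1 gap above siSbp2l (5.80 FPKM) and 6 groups from 11.6 to 18.3. Sc4mol and Sc5d each had a gap above siSbp2l and another above Day0. Ebp had 1 gap, above Day0, since siSbp2l and Day0 did not differ (adjusted p = 0.137).

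Nsdhl had 1 gap, between siSbp2l (21.3 FPKM) and siPdgfra (32.8). In Dhcr7 the only gap lay between NC siRNA #2 (47.4 FPKM) and siPdgfra (69.7). Lss had gaps between Day0 (25.6 FPKM) and NC siRNA #2 (34.9) and between NC siRNA #1 (37.2) and mock (53.1). Hsd17b7 had 3, with Day0, siPdgfra and siSbp2l below them at 13.1, 13.3 and 14.9 FPKM.

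The members followed one another to unequal degrees. Over the 7 group means of log2(FPKM + 1), the 36 pairs had a median Pearson r of 0.58, from -0.22 (Hsd17b7 and Dhcr7) to 0.96 (Ebp and Sc5d), and 2 pairs were negative. The r with the mean of the other 8 was 0.97 for Sc4mol, 0.91 for Sc5d, 0.45 for Hsd17b7 and 0.36 for Dhcr7. These are descriptions over 7 groups that share their libraries across genes.

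The 5 genes outside the set whose group means were most like the members' mean profile, out of 11865, were Mbd1 (r = 0.99), Dolk (0.98), Atp6v0e2 (0.97), Tmem63b (0.97) and Desi1 (0.97), over the same 7 group means. Dolk was lowest in siSbp2l at 6.78 FPKM (SD 0.33), beside 11.8 (SD 0.76) at Day0, 17.8 (SD 0.059) in siPdgfra and 15.9 (SD 3.56) to 18.0 (SD 0.13) in the controls. Mbd1 moved little, from 11.7 FPKM (SD 0.46) in siSbp2l to 16.6 (SD 0.77) in mock. All 5 were lowest in siSbp2l, as the members' mean profile was, so this follows from how they were chosen.

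Differences between replicates went with the base composition of the transcripts in several pairs, most in the non-treated pair. Replicate 1 minus replicate 2 in log2(FPKM + 1) was 0.73 for Tm7sf2 (51.0% GC), 0.40 for Dhcr7 (52.8%), 0.32 for Ebp (50.9%) and 0.23 for Lss (48.7%). It was -0.31 for Sc5d (42.9%), -0.28 for Hsd17b7 (43.9%) and -0.14 for Sc4mol (44.7%). The Pearson r with GC content over the 9 genes of these 2 libraries was 0.92, and Spearman's rho over all genes with a GC value was 0.77. In the Day0 pair, the other arm of the differentiation comparison, these were 0.73 and 0.49, and in NC siRNA #1 they were -0.50 and -0.44. Over the 9 genes r was 0.67 in NC siRNA #2, 0.51 in siPdgfra, 0.44 in mock and -0.20 in siSbp2l, and rho over all genes lay between -0.05 and 0.18 in these 4 pairs. The part of GC content in the results was not tested. With non-treated left out of the controls, all 9 members still fell in siSbp2l, and siPdgfra kept 3 lower and 1 higher.

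**Figure D4:**
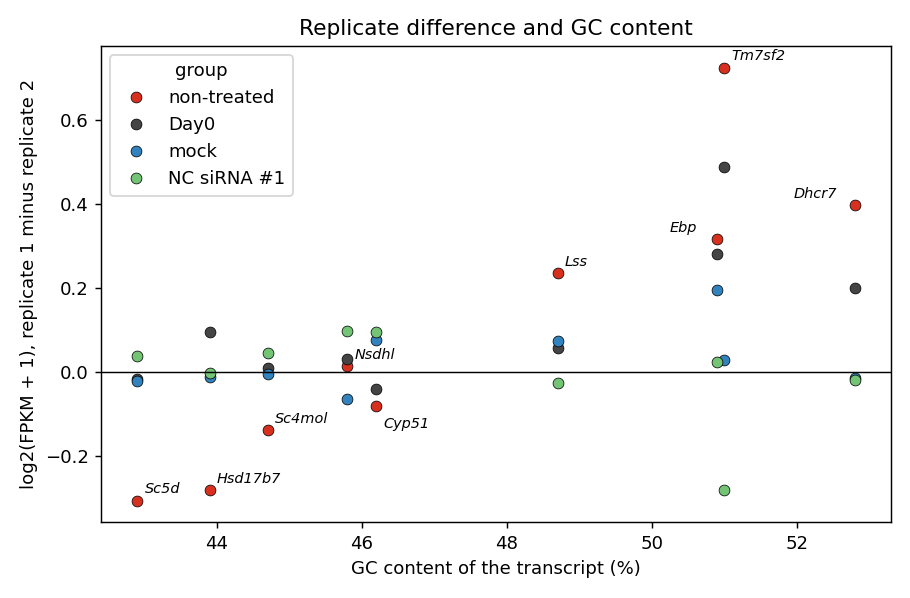
Difference in log2(FPKM + 1) between replicate 1 and replicate 2 (vertical axis) against the GC content of the transcript in percent, for the 9 genes in the non-treated (red), Day0 (grey), mock (blue) and NC siRNA #1 (green) pairs, with gene names at the non-treated points. The non-treated differences run from -0.31 (Sc5d) to 0.73 (Tm7sf2), those of Day0 from -0.04 to 0.49, those of mock from -0.07 to 0.19 and those of NC siRNA #1 from -0.28 to 0.10.

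The enzymes before lanosterol were counted as a list of 10, from Acat2 to Sqle. In siSbp2l 10 of 10 fell (17.9% of all genes tested), 2 of them by at least 2-fold (4.08% of genes), with a median of -0.86, beside 0.15 over all genes. Sqle, the epoxidase whose product Lss closes, fell by 0.60 in siSbp2l (adjusted p = 4.40e-05) and rose by 0.22 in siPdgfra (adjusted p = 0.0175). In siPdgfra 4 of the 10 fell (23.0% of genes) and 1 rose (32.4%), with a median of -0.10, beside 0.09 over all genes.

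Of 5 further enzymes or partners of the sterol steps, 4 were tested. Lbr, a nuclear membrane protein with the same reductase activity as Tm7sf2, stood at 26.3 and 23.4 FPKM at Day0 and 8.38 and 9.45 in non-treated, a fall of 1.38 (adjusted p = 4.63e-07). In siSbp2l Lbr differed by -0.09 from the controls (adjusted p = 0.374), where Tm7sf2 fell. Cyb5r3 and Por, which pass electrons to enzymes of the pathway, rose in siSbp2l by 0.56 (adjusted p = 0.00300) and 0.42 (adjusted p = 0.0402). Both rises were from the mean of the controls, from which 35.5% of genes rose. When each control group was taken alone, Por rose only from non-treated (0.56, adjusted p = 0.0357). For the remaining groups its difference was 0.23 to 0.49 and did not pass. Cyb5r3 rose from every control group but NC siRNA #2, where the difference was 0.02 (adjusted p = 0.926).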

How the data were processed

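mRNA-seq libraries (stranded, poly-A selected) of 7 groups with 2 libraries each were examined. Reads were mapped and quantified by the authors in OmicSoft ArrayStudio (mm10, refGene), and FPKM values were deposited with 1 column per library; software settings are not given in the sources used here. The submitters' processing notes also name DESeq version 2, which the paper's methods give as DESeq2. A second deposited table of the authors' fold changes and p-values was used only for coordinates and exon lengths. The 2 non-treated columns are named by day alone and were matched by elimination, and 1 misspelt column was matched to siSbp2l.

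Values were analysed as log2(FPKM + 1) in limma 3.58.1 (R 4.3.3) with trend and robust moderation. Genes at 1 FPKM or more in at least 2 fitted libraries were tested: 11650 in the fit of 12 Day3 libraries, 11874 in the fit of all 14, used for Day0. A pseudocount of 1 understates changes of low genes. Tests were two-sided, with Benjamini-Hochberg adjustment over all genes tested, and a call of 2-fold also needed an adjusted p under 0.05. Depths were recovered from FPKM steps, 88.8% to 92.5% of low values of single-transcript genes being whole within 0.1; they cover counting error only. The members, the lists, the motifs and the tests were chosen with earlier results of these data known. Named genes were all members, some pathway genes, the 2 targets, Mbp and the 5 genes most alike. Acat2, Cyb5r3, Por, Tubb3 and Mtap2 were named after their values were seen. Transcript GC content came from the longest GENCODE transcript of each symbol on GRCm38. Markers were counted by list. Some pathway genes are not reported here by name. Group means are given with SD. Faxdc2 was not found in the table. The fits were tested on simulated data. Pseudocounts, filters, scalings, control sets, a replicate block and left-out libraries were tried as alternatives.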

Additional observations from a re-analysis of the deposited data

How the results depend on the processing

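In siSbp2l against the mean of the controls, all 9 members stayed lower under each alternative tried, and only Dhcr7 lost its call, without siSbp2l replicate 1. The number at 2-fold was 3 with a pseudocount of 5, in place of 5. In siPdgfra the number that rose was 2 with mock left out of the controls and 1 to 3 over the left-out libraries (2 without non-treated replicate 1, 3 without replicate 2). Sc4mol and Ebp, which did not pass in siPdgfra, changed sign: to -0.0925 and -0.0767 with median-ratio scaling, -0.0851 and -0.0696 with upper-quartile scaling and -0.000663 and -0.00783 without the non-treated controls, Sc4mol to -0.0306 without NC siRNA #1 and Ebp to -0.0395 without NC siRNA #2. Over left-out libraries Sc4mol lay between -0.0670 and 0.0885 and Ebp between -0.119 and 0.165. Lss in siSbp2l against siPdgfra was -0.0156 with median-ratio scaling. For non-treated against Day0, the fit of only those libraries gave 0 lower and 1 higher, and left-out libraries gave 0 to 2 lower (0 without Day0 replicate 1 or non-treated replicate 2, 2 without the other library of either pair). Cyp51 and Nsdhl passed there under median-ratio (0.24 and 0.32) and upper-quartile scaling (0.26 and 0.34). With median-ratio scaling, siPdgfra had 0 members higher by 2-fold against non-treated, 1 higher against NC siRNA #1, 1 higher against NC siRNA #2 and 2 lower against Day0, siSbp2l had 2 lower by 2-fold against Day0, and NC siRNA #2 had 1 lower and 0 higher against non-treated. The cause of these changes was not tested. Of 648 alternative values for single members, 615 kept their direction and their side of the threshold. The median over all genes of siSbp2l against the controls was 0.15 as deposited and about 0 with median-ratio scaling. Whether replicate numbers pair the samples was not settled. Over 21 pairs of groups, the correlation of the replicate 1 minus replicate 2 differences ran from -0.38 to 0.47 and was over 0.1 in 4. It was highest between Day0 and non-treated. Such differences went with GC content in several pairs, so they cannot show whether cultures were shared. A fit with the replicate block gave 9 lower in siSbp2l, 3 lower and 1 higher in siPdgfra, 7 lower between the knockdowns and 5 higher and 1 lower against Day0. Tm7sf2 and Ebp had the fewest fragments. The largest SE against the mean of the controls were 0.169 for Tm7sf2, 0.108 for Dhcr7 and 0.105 for Ebp.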

Other observations

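Of 19 genes of sterol control and transport, 16 were tested. In siSbp2l 2 fell (17.9% of all genes tested) and 3 rose (35.5%). Insig1, which retains the SREBP complex in the reticulum, was at 44.9 and 41.0 FPKM in siSbp2l, 55.5 and 61.3 in siPdgfra, 55.6 and 55.8 at Day0 and 103 to 130 in the controls. It fell by 1.38 in siSbp2l (adjusted p = 5.45e-07) and by 0.95 in siPdgfra (adjusted p = 5.36e-06). Srebf2, which encodes SREBP-2, differed by 0.18 in siSbp2l (adjusted p = 0.226) and rose by 0.34 in siPdgfra (adjusted p = 0.0318). In siPdgfra 6 of the 16 fell (23.0% of genes) and 6 rose (32.4%).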
